A study of Mus musculus with 10 samples.

Results

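The genes described here are mouse chromosome 16 orthologues of human chromosome 21 genes. They lie outside the segment duplicated in the Dp1Rhr mouse, a model of Down syndrome. They were listed by name as 46 genes. These run from Lipi to Setd4 on the proximal side of the duplication and from Tmprss2 to Zbtb21 on the distal side. The list leaves out other such orthologues. Of those left out, 23 were measured in the same fit and 1, Ifnar2, rose, as given further below. A gene was measured by a probe set that the array annotation gives to that gene alone, and of several such probe sets the brightest over the 10 arrays was taken. That left 45 of the 46 genes, among 19938 genes measured in the same way in the whole series. Btg3, a gene of an antiproliferative family, was the exception. Its probe sets carry a second gene name, so it has no value of its own here.

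Hippocampal RNA was measured in 5 Dp1Rhr mice and 5 control littermates, 1 array per mouse, with both hippocampi of a mouse combined. Dp1Rhr mice carry a tandem duplication on 1 chromosome 16 from Cbr1 to Fam3b, in every cell, so the genes inside it are at 3 copies and the genes described here stay at 2. Control mice have 2 copies of all of them and came from the cross of the Dp5Yah and Dp1Rhr lines. All mice were males aged 16 weeks on a C57BL/6N background by the labels, whereas the study's methods name C57BL/6J. The values are log2 signals, so a difference of 1 is a doubling, and the array medians over the named genes lay between 7.55 and 7.60. The 14 markers of hippocampal neurons had mean signals of 10.74 to 10.77 in the Dp1Rhr arrays and 10.75 to 10.80 in the control arrays.

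Down syndrome is caused by an extra copy of human chromosome 21, and mouse lines with partial duplications are used to divide its genes into those that are tripled and those that are not. Genes in 3 copies commonly produce more RNA, up to about the ratio of the copies. Genes next to a duplicated segment keep their own copies, but can sit in the same chromatin neighbourhood, and can also respond to the products of the tripled genes. The flanking genes include several that are studied in Down syndrome for their own sake when they are tripled in other models, such as Sod1, which detoxifies superoxide, and Synj1 and Itsn1, which act in synaptic vesicle recycling.

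None of the 45 measured genes passed the test between Dp1Rhr and control. In the limma fit over all genes, with Benjamini-Hochberg adjustment at 0.05, 0 rose and 0 fell. Of all genes 0.802% were called, and 0 of 45 is close to that share. At an unadjusted p under 0.05 there were 2 of 45 genes, Jam2 and Prdm15, which is 4.44% against 15.0% of all genes. The 5 Dp1Rhr arrays and the 5 control arrays overlapped for every one of the 45 genes. They did not overlap for 3.52% of all genes, and 0 of 45 is close to that share too. The study's own ranking method, FCROS, called the same pair, 2 of 45, where it called 5.39% of all genes. The median log2 fold change of the 45 genes was 0.0024, with 23 above and 22 below 0, and the median over all genes was -7.57e-05. In the same fit 14 of the 30 named orthologues inside the duplication rose and 0 fell, with a median of 0.22. The calls inside the duplication depended on the fit, with 2 to 15 genes past the threshold over the limma refits. The fewest were 2 with a replicate block, 3 with a choroid plexus score as covariate and 4 without Dp1Rhr replicate 1. In every refit 0 fell. The median was 0.19 to 0.23 in the limma refits that kept all 30 genes. It was 0.34 where low-signal genes were left out, which kept 20 of the 30.

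**Figure D1:**
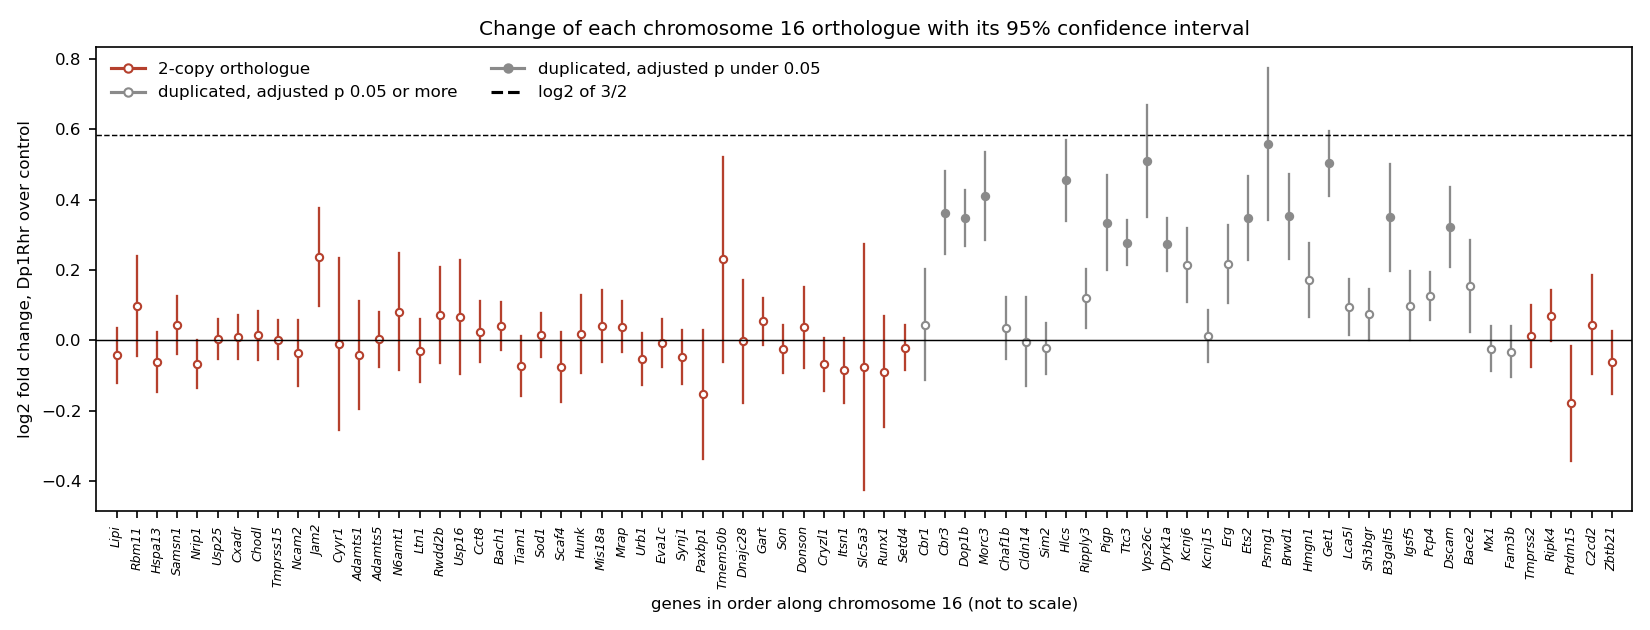
Log2 fold change of Dp1Rhr over control (y axis) for the 45 flanking genes (red) and the 30 duplicated genes (grey) in their order along chromosome 16 (x axis, not to scale), with 95% confidence intervals, filled where the limma adjusted p is under 0.05. No red point is filled, and all red intervals end below the dashed line at 0.58, the log2 of 3 over 2.

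For probe sets with signal above background, the 95% confidence intervals give how large a change the arrays could have missed. A gene at 3 copies that produced RNA in proportion would show a log2 fold change of 0.58, and the upper limits of all 45 genes lay below it. So did those of 27 of the 30 duplicated genes, so this bound does little to separate the copy numbers. The highest upper limits were 0.52 for Tmem50b, 0.38 for Jam2 and 0.27 for Slc5a3, the transporter of myo-inositol, and they were the only 3 at or above 0.27, the smallest change of a duplicated gene that rose. The other 42 upper limits lay below that value, as did those of 12 of the 30 duplicated genes. Of the 45 genes 6 were near probe background, as given with the proteases, and their intervals set no such limit. Among the other 39 genes, 36 upper limits lay below 0.27, against 6 of the 24 duplicated genes above the same background bound. The value of 0.27 was taken from the 14 duplicated genes that rose, so their upper limits had to lie above it. The duplicated counts are thus partly fixed in advance, and the comparison does not test copy number. The intervals had a median width of 0.18, and 43 of 45 included 0. In 41 of 45 genes the change was under 0.1 in either direction. The limit of Tmem50b passed 0.58 in some refits, reaching 0.59 without Dp1Rhr replicate 3, 0.59 without control replicate 3, 0.66 without control replicates 2 and 3 together and 0.74 with a choroid plexus score as covariate.

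**Figure D2:**
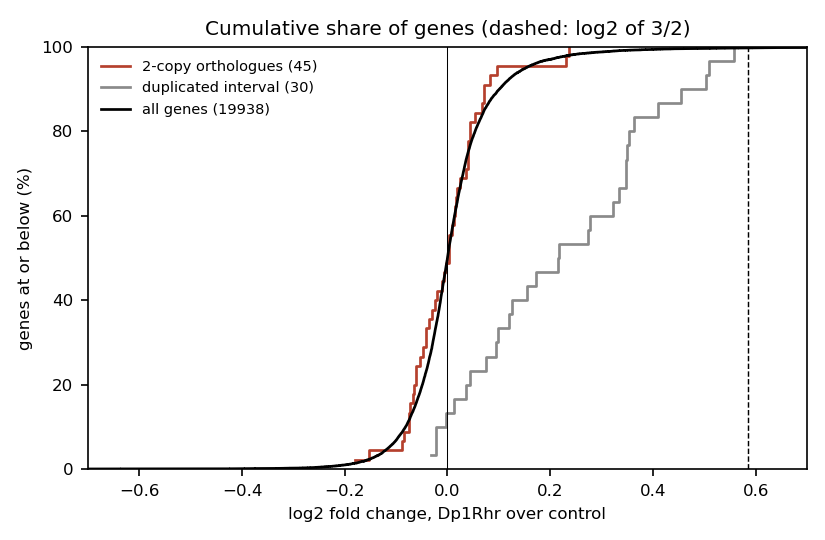
Cumulative percentage of genes (y axis) at or below a log2 fold change of Dp1Rhr over control (x axis) for the 45 flanking genes (red), the 30 duplicated genes (grey) and all 19938 genes (black). The red and black curves cross 50% near 0 and the grey curve at 0.22. The axis leaves out 29 of all genes, which lie beyond 0.7 in either direction.

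By position, the 11 measured genes of the most proximal block, Lipi to Jam2, had log2 fold changes of -0.07 to 0.24 with a median of 0.0034. The 28 listed genes from Cyyr1 to Runx1 ran from -0.15 to 0.23 with a median of -0.0053. Of these 28 genes, 0 had an unadjusted p under 0.05, against 15.0% of all genes. The blocks leave out further orthologues of the same stretches. Ifnar2, which the paper counts among the genes tripled in the Dp5Yah line, from Cyyr1 to Clic6, is not among the 28. It rose by 0.26 ± 0.05 (SE, n = 5 per group, limma adjusted p = 0.0376), as given with the other orthologues below. The 5 listed genes past the distal edge, Tmprss2 to Zbtb21, ran from -0.18 to 0.07 with a median of 0.01. Across the 45 genes the Pearson correlation of the change with the distance to the nearest edge was 0.11. The genes were measured on the same arrays, so this is a description.

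The mean over each block was also taken array by array, as a deviation from each gene's 10-array mean. The Cyyr1 to Runx1 block largely coincides with the segment tripled in the Dp5Yah line of the shared cross, so its mean checks the labels. It deviated by -0.07 to 0.04 in the Dp1Rhr arrays and by -0.05 to 0.05 in the control arrays. The ranges overlapped, and no array stood apart by the size seen inside the duplication. There the deviation was 0.09 to 0.13 in the Dp1Rhr arrays and -0.12 to -0.10 in the control arrays. Over all 45 flanking genes it was -0.04 to 0.02 in the Dp1Rhr arrays and -0.03 to 0.03 in the control arrays.

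**Figure D3:**
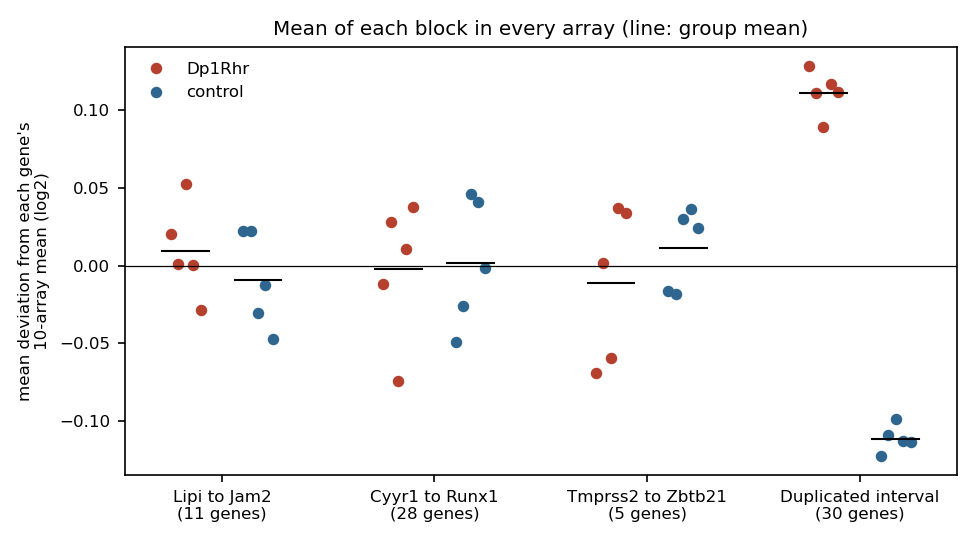
Mean log2 deviation from each gene's 10-array mean (y axis) in every array for 3 blocks of flanking genes and for the duplicated interval (x axis), with Dp1Rhr arrays in red on the left, control arrays in blue on the right and group means as lines. The flanking blocks overlap between the groups, while inside the duplication the Dp1Rhr arrays lie between 0.09 and 0.13 and the control arrays between -0.12 and -0.10.

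Setd4, a lysine methyltransferase of the SET domain family, is the member nearest the duplication. It ends 3.05 kb before Cbr1, the carbonyl reductase gene at which the tripled segment begins, and is read in the opposite direction, with 4022 bases between the start sites that RefSeq lists first. Its log2 signals were 6.52, 6.49, 6.45, 6.53 and 6.51 in the Dp1Rhr arrays and 6.48, 6.54, 6.55, 6.48 and 6.56 in the control arrays. All 10 values lay within a narrow and overlapping range. The mean signal of 6.51 was low, at percentile 35.6 of all genes. The log2 fold change was -0.02 ± 0.03 (SE, n = 5 per group, limma adjusted p = 0.821). Cbr1 itself, where the paper starts the duplication, had 0.04 ± 0.07 (SE, n = 5 per group, limma adjusted p = 0.854). The next gene, Cbr3, rose by 0.36 ± 0.05 (SE, n = 5 per group, limma adjusted p = 0.0210), a call held in 11 of the 18 limma refits. The promoters of Setd4 and Cbr1 are shown because the duplication is named from Cbr1, which puts its edge near them. The exact breakpoint and the copy number of Cbr1 were not measured here. Each is the RefSeq window of 250 bases before to 50 after the start, in GRCm38.p6, 5′ to 3′ on the gene's own strand, with each CG dinucleotide in capitals. Setd4 (chr16:93603766-93604065, minus strand) holds 29 such dinucleotides, and Cbr1 (chr16:93607587-93607886, plus strand) holds 11.
Setd4: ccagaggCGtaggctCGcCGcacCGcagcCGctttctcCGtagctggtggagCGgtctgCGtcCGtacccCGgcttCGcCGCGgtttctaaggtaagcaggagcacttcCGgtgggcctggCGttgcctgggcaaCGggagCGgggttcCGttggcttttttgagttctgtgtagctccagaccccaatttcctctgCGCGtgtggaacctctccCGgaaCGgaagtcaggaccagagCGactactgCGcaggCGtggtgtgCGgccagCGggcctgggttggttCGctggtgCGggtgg
Cbr1: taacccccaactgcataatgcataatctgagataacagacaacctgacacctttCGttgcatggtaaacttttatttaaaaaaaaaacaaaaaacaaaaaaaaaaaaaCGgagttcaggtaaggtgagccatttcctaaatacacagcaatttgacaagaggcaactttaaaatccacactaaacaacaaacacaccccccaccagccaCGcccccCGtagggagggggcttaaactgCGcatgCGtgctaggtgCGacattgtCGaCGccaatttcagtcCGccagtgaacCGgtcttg

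Tmprss2, a transmembrane serine protease, is the listed gene nearest the distal edge, 59.7 kb after Fam3b, with Mx2 between them. It had 6.08, 6.11, 6.25, 6.13 and 6.08 in the Dp1Rhr arrays and 6.15, 6.17, 6.03, 6.11 and 6.14 in the control arrays. The groups overlapped throughout. The mean signal of Tmprss2, 6.125, was only a little above the background bound of 5.98, so a change could be partly hidden. Its log2 fold change of 0.01 ± 0.04 (SE, n = 5 per group, limma adjusted p = 0.931) had no settled sign, being -0.01 after the arrays were centred on their medians. Fam3b, the last gene inside, had -0.03 ± 0.03 (SE, n = 5 per group, limma adjusted p = 0.733), and Mx1 beside it had -0.02 ± 0.03 (SE, n = 5 per group, limma adjusted p = 0.793). The signals of Fam3b, 5.51 ± 0.06 in Dp1Rhr and 5.54 ± 0.03 in control (SD, n = 5 each), and of Mx1, 5.15 ± 0.01 in Dp1Rhr and 5.17 ± 0.05 in control (SD, n = 5 each), lay below 5.98, the background bound given with the proteases, so a change of either gene could be hidden.

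Of the 10 genes for neuronal adhesion and signalling, 0 passed the test and the median log2 fold change was 0.0011. Jam2, a junctional adhesion molecule of endothelial and neural cells, had the smallest p of all 45 genes. Its log2 signals were 10.69, 10.71, 10.89, 10.68 and 10.51 in the Dp1Rhr arrays and 10.53, 10.50, 10.37, 10.54 and 10.36 in the control arrays. Dp1Rhr replicate 5 was the only array of its group within the control range, and the other 4 lay above all control arrays. The log2 fold change was 0.24 ± 0.06 (SE, n = 5 per group) with a limma adjusted p of 0.103. Among the limma refits it passed the threshold in 1, without Dp1Rhr replicate 5 (0.28 ± 0.06 SE, limma adjusted p = 0.0403), and over all limma refits its adjusted p ranged from 0.0403 to 0.276.

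Markers of endothelium, where Jam2 is known to be expressed, were measured beside it. Of 11 endothelial markers 0 passed, 9 had a change above 0, and their median was 0.12. An unadjusted p under 0.05 was found for 5 of the 11, against 15.0% of all genes. Their mean signal was 8.85 to 8.98 in the Dp1Rhr arrays and 8.76 to 8.99 in the control arrays, so the ranges overlapped. Tek, the angiopoietin receptor, had the smallest p, with 0.25 ± 0.07 (SE, n = 5 per group, limma adjusted p = 0.114). The part of this cell type in the value of Jam2 was not tested. In whole tissue, a difference in the number of cells of a type cannot be told apart from a difference in RNA per cell.

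Itsn1 and Synj1 belong to the machinery that retrieves synaptic vesicles, Itsn1 as a scaffold of clathrin coats and Synj1 as the phosphoinositide phosphatase that strips the coat. Itsn1 had 10.26, 10.37, 10.28, 10.32 and 10.41 in the Dp1Rhr arrays and 10.29, 10.42, 10.48, 10.45 and 10.43 in the control arrays. Its control replicate 1 lay among the Dp1Rhr arrays. The log2 fold change was -0.08 ± 0.04 (SE, n = 5 per group, limma adjusted p = 0.383). Synj1 had 11.42, 11.48, 11.49, 11.43 and 11.48 in the Dp1Rhr arrays and 11.54, 11.60, 11.49, 11.46 and 11.44 in the control arrays. The 2 highest values were control arrays, and the rest were mixed. Its change was -0.05 ± 0.04 (SE, n = 5 per group, limma adjusted p = 0.604).

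Tiam1, the exchange factor that activates Rac at dendritic spines, had 10.30, 10.31, 10.43, 10.30 and 10.38 in the Dp1Rhr arrays and 10.44, 10.38, 10.45, 10.33 and 10.49 in the control arrays. Dp1Rhr replicates 3 and 5 reached into the control range. The change was -0.07 ± 0.04 (SE, n = 5 per group, limma adjusted p = 0.430). The other 6 genes of this role ran from -0.04 for the neural cell adhesion gene Ncam2 to 0.04 for Samsn1, an adaptor of immune signalling. Between them lay Cxadr, the coxsackievirus and adenovirus receptor, the kinase Hunk, the lectin-like gene Chodl and the guidance receptor Eva1c.

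Cryzl1 is a gene related to the lens protein zeta-crystallin. By the start sites that RefSeq lists first, Itsn1 starts 569 bases from Cryzl1, and the pair is read outward from a shared stretch. Both are among the 8 genes with the smallest p, and Cryzl1 had 9.90, 9.99, 9.90, 9.98 and 10.02 in the Dp1Rhr arrays and 10.05, 10.02, 10.03, 9.95 and 10.06 in the control arrays. Control replicate 4 lay inside the Dp1Rhr range, and Dp1Rhr replicates 2, 4 and 5 lay inside the control range. Its change was -0.07 ± 0.03 (SE, n = 5 per group, limma adjusted p = 0.391). The promoters of the pair are shown because they lie back to back, in the same RefSeq windows and with each CG dinucleotide in capitals. Itsn1 (chr16:91729121-91729420, plus strand) holds 23 and Cryzl1 (chr16:91728753-91729052, minus strand) holds 16.
Itsn1: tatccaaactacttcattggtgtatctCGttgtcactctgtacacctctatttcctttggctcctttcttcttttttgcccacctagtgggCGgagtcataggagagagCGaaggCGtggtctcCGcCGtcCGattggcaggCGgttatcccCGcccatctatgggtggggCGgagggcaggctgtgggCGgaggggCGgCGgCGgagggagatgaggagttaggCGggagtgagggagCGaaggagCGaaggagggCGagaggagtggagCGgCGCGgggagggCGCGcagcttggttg
Cryzl1: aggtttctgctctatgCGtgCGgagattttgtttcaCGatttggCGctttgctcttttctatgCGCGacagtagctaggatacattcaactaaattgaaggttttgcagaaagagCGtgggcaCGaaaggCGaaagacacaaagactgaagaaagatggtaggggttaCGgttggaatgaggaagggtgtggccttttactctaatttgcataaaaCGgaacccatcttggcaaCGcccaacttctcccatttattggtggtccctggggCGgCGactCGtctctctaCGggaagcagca

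Of the 14 measured genes that act in the nucleus, 0 passed, with 5 above and 9 below 0 and a median of -0.04. Prdm15, a zinc finger transcription regulator of the PRDM family on the distal side, had the lowest log2 fold change of the 45 genes. Its signals were 7.60, 7.78, 7.53, 7.63 and 7.81 in the Dp1Rhr arrays and 7.76, 7.63, 7.94, 7.94 and 7.99 in the control arrays. Control replicates 1 and 2 lay within the Dp1Rhr range, and the other 3 control arrays lay above all Dp1Rhr arrays. The log2 fold change was -0.18 ± 0.07 (SE, n = 5 per group), with a limma adjusted p of 0.280 that ranged from 0.157 to 0.512 over the refits.

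Nrip1, the nuclear receptor corepressor known as RIP140, had 9.46, 9.45, 9.52, 9.42 and 9.37 in the Dp1Rhr arrays and 9.54, 9.49, 9.51, 9.49 and 9.52 in the control arrays. Only Dp1Rhr replicate 3 reached the control range. Its change was -0.07 ± 0.03 (SE, n = 5 per group, limma adjusted p = 0.350). Paxbp1, a binding partner of the PAX transcription factors of muscle precursors, had 7.92, 8.39, 8.0, 8.23 and 8.33 in the Dp1Rhr arrays and 8.25, 8.30, 8.32, 8.32 and 8.46 in the control arrays. Dp1Rhr replicates 1 and 3 lay well below every other array, and the other 3 lay within or near the control values. The change was -0.15 ± 0.08 (SE, n = 5 per group, limma adjusted p = 0.437), and it ranged from -0.21 to -0.09 when single arrays were left out.

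The remaining nuclear genes, Setd4 aside, ran from -0.09 for the blood transcription factor Runx1 to 0.10 for the RNA-binding splicing regulator Rbm11. Bach1, the haem-regulated repressor of antioxidant genes, had 0.04, and Son, a splicing factor of nuclear speckles, had -0.02. N6amt1, which methylates a translation release factor, had 0.08, and Scaf4, which binds the tail of RNA polymerase at transcript ends, had -0.07. Mis18a, needed to load the centromeric histone, had 0.04, Urb1, a ribosome biogenesis factor, had -0.05, Donson, a replication fork protein, had 0.04, and the zinc finger gene Zbtb21 had -0.06. The annotated spans of Son and Donson overlap by 12337 bases, so their values may share transcripts, which was not tested.

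Of the 7 genes of protein folding and turnover 0 passed, and the median was 0.0034. The log2 fold change was 0.0034 for Usp25 and 0.07 for Usp16, both deubiquitinating enzymes, and -0.06 for Hspa13, an ATPase of the heat shock protein family in microsomes. Cct8, a subunit of the ring-shaped chaperonin that folds actin and tubulin, had 0.02 ± 0.04 (SE, n = 5 per group, limma adjusted p = 0.853). Ltn1, the ubiquitin ligase that marks nascent chains on stalled ribosomes, had -0.03 ± 0.04 (SE, n = 5 per group, limma adjusted p = 0.820). Ltn1 was the only one of the 45 genes with more than 1 probe set of its own, and its 16 probe sets ran from -0.08 to 0.10, with 8 above and 8 below 0. The J-domain gene Dnajc28 had -0.0032 and Rwdd2b had 0.07. The spans of Usp16 and Cct8 overlap by 191 bases at their ends.

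Of the 10 genes of metabolism, transport and other functions 0 passed, with 6 above and 4 below 0 and a median of 0.03. Sod1, the cytosolic copper and zinc superoxide dismutase, had 11.75, 11.79, 11.71, 11.71 and 11.77 in the Dp1Rhr arrays and 11.76, 11.70, 11.69, 11.74 and 11.76 in the control arrays. The arrays of both groups were interleaved between 11.69 and 11.79. The log2 fold change was 0.02 ± 0.03 (SE, n = 5 per group, limma adjusted p = 0.876), with a 95% interval from -0.05 to 0.08. The sign was not settled, being -0.0084 after the arrays were centred on their medians. Its promoter is shown because it is 1 of 2 among the 38 flanking genes with a RefSeq window that hold a TATA box (letters TATAAA), which stands in capitals together with the GC boxes (letters GGGCGG, or CCGCCC read on the other strand). The window is chr16:90220512-90220811, plus strand, GRCm38.p6, from RefSeq, and holds 1 TATAAA and 4 GC boxes, some of which overlap.
Sod1: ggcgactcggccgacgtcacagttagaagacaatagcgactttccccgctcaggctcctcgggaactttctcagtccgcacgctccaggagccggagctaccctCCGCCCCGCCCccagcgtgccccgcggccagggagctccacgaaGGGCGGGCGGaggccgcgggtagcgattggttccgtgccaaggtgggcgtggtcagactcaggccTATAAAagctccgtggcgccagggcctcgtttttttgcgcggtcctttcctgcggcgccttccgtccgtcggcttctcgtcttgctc

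Tmem50b, a transmembrane protein of the endoplasmic reticulum and Golgi, had 12.22, 12.24, 11.85, 12.34 and 12.16 in the Dp1Rhr arrays and 11.47, 11.96, 12.30, 11.87 and 12.06 in the control arrays. Dp1Rhr replicate 3 lay below 4 of the 5 control arrays, and control replicate 1 was the lowest of all 10. The change was 0.23 ± 0.13 (SE, n = 5 per group, limma adjusted p = 0.467). It was 0.12 without control replicate 1 and 0.42 with the choroid plexus score as covariate, neither of which passed the test. Ripk4, a kinase known from epithelial differentiation, had 5.65, 5.55, 5.59, 5.69 and 5.58 in the Dp1Rhr arrays and 5.52, 5.59, 5.53, 5.51 and 5.57 in the control arrays. Control replicates 2 and 5 lay inside the Dp1Rhr range. The change was 0.07 ± 0.03 (SE, n = 5 per group, limma adjusted p = 0.347).

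The other genes of this group were small in change or wide in spread. Gart, the trifunctional enzyme of purine synthesis, had 0.05 ± 0.03 (SE, n = 5 per group, limma adjusted p = 0.445). Slc5a3, which takes up myo-inositol, had -0.08 ± 0.16 (SE, n = 5 per group, limma adjusted p = 0.897), the widest error of the 45. It lay between 8.41 and 9.07 in the Dp1Rhr arrays and between 8.46 and 9.31 in the control arrays. Cyyr1, a small membrane protein, ran from 8.37 to 8.64 in the Dp1Rhr arrays and from 8.24 to 8.97 in the control arrays. Mrap, an accessory protein of the melanocortin receptor in adrenal cells, had 0.04, C2cd2 had 0.04 and the lipase gene Lipi had -0.04.

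The 4 secreted or membrane proteases had changes of -0.04 to 0.01. Adamts1 and Adamts5, metalloproteases that cut the proteoglycan aggrecan, had -0.04 and 0.0032. Tmprss15, the gut protease enteropeptidase, had 0.0024, with signals of 4.77 to 4.79 in the Dp1Rhr arrays and 4.75 to 4.83 in the control arrays. It was 1 of 6 genes, with Lipi, Chodl, Adamts5, Eva1c and Ripk4, whose mean signal was not above 5.98, the 95th percentile of the probe sets of 1015 olfactory receptor genes, a family used mainly in the nose. For these 6 genes the arrays may report little beyond probe background, so a change could be hidden. Over the other 39 genes the median log2 fold change was -0.0032. The Tmprss15 promoter (chr16:79091048-79091347, minus strand, GRCm38.p6, RefSeq window) is shown as the contrast to Setd4, with 3 CG dinucleotides in capitals.
Tmprss15: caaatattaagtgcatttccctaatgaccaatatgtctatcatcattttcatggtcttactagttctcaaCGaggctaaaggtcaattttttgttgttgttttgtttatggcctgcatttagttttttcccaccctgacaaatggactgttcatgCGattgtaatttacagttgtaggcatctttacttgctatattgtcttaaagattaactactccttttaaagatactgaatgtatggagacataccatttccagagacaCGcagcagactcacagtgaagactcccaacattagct

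**Figure D4:**
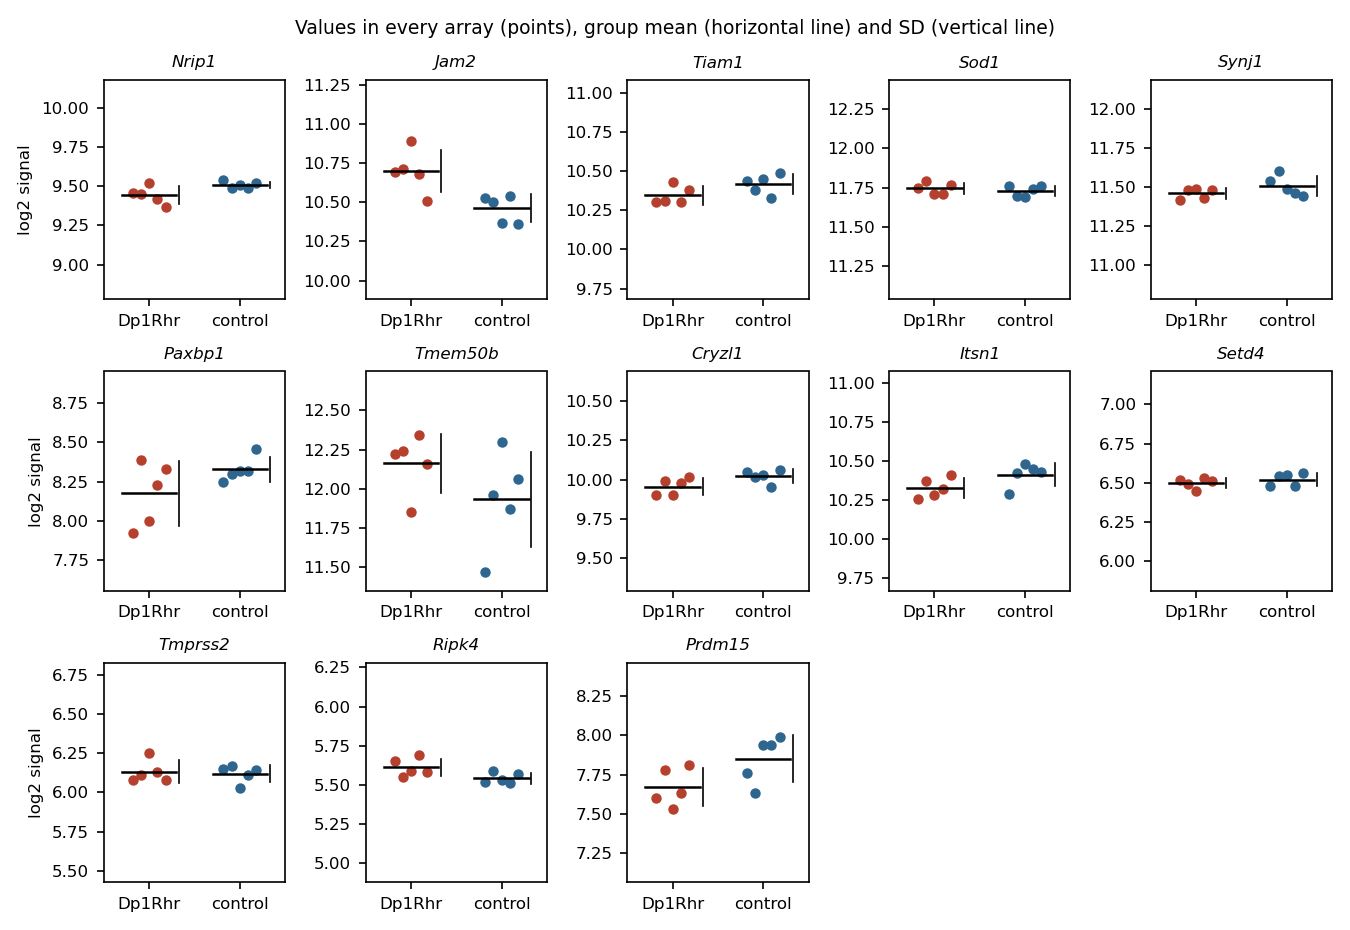
Log2 signal (y axis, 1.4 units in every panel) of the 13 genes given array by array, with Dp1Rhr on the left and control on the right. Points are arrays, horizontal lines means and vertical lines SD (n = 5 each). Jam2 is the panel with least overlap, where only Dp1Rhr replicate 5, at 10.51, lies within the control range.

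The spread was not equal over the arrays. Dp1Rhr replicate 3 was the lowest of the 10 arrays for 11 of the 45 genes (24.4%, against 11.3% of all genes), among them Usp16, N6amt1, Rwdd2b and Slc5a3. Dp1Rhr replicate 1 was the lowest for 9 genes (20%, against 9.75% of all genes), among them Synj1, Itsn1, Paxbp1 and Son. The other 8 arrays were lowest for 1 to 7 genes each. The median within-group SD of the 45 genes was 0.064, against 0.068 over all genes.

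The RefSeq promoter table held windows for 38 of the 46 genes. Counting a window as rich in CG dinucleotides when its GC content was above 50% and its CG count above 0.6 of that given by its base composition, 25 of the 38 were rich, which is 65.8% against 33.9% of the first-listed windows of all 27025 genes. The CG count ran from 2 for Runx1 to 54 for Usp25. The GC box was in 21 of 38 windows (55.3%, against 35.9% of all) and TATAAA, on either strand, in 2, Sod1 and Adamts1 (5.26%, against 14.2% of all). A run bound by a nuclear respiratory factor, GCGCATGCG on either strand, was in 3, N6amt1, Mis18a and Paxbp1 (7.89%, against 1.81% of all). It was also in the Cbr1 window shown above. The all-gene table includes many genes that the array does not measure.

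Genes that work with the flanking genes were read from the same fit. Of 30 endocytosis genes that act with Synj1 and Itsn1, 0 passed, 9 were above and 21 below 0, and the median log2 fold change was -0.02. Fcho2, which starts clathrin pits, had 0.15 ± 0.05 (SE, n = 5 per group, limma adjusted p = 0.141), and Dnm1, the dynamin that pinches off vesicles, had -0.10 ± 0.03 (SE, n = 5 per group, limma adjusted p = 0.158). Of the other 7 subunits of the chaperonin that holds Cct8, 0 passed and the median was -0.0020, with 0.07 for Cct3 and -0.03 for Cct5. Of 7 genes of ribosome quality control beside Ltn1, 0 passed and the median was -0.02, with -0.10 for the collision sensor Zfp598 and 0.05 for the unfolding enzyme Vcp.

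Of 9 measured genes of superoxide and peroxide defence that work beside Sod1, 0 passed and 8 were above 0. Their median was 0.11, and 7 had an unadjusted p under 0.05, against the 15.0% of all genes. The peroxiredoxin Prdx1 had 0.21 ± 0.05 (SE, n = 5 per group, limma adjusted p = 0.0644), with all Dp1Rhr arrays between 11.31 and 11.48 and all control arrays between 11.06 and 11.30. Prdx3, its mitochondrial relative, had 0.20 ± 0.06 (SE, n = 5 per group, limma adjusted p = 0.147). Of 9 purine synthesis genes beside Gart, 0 passed and the median was 0.04. Adsl, the lyase of the same pathway, had 0.15 ± 0.03 (SE, n = 5 per group, limma adjusted p = 0.0776) and Atic had 0.12 ± 0.06 (SE, n = 5 per group, limma adjusted p = 0.336).

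Other orthologues at 2 copies in both groups gave these values. Of 23 further chromosome 16 genes outside the duplication, 1 rose, 0 fell and the median was 0.06. At an unadjusted p under 0.05 there were 9 of the 23 (39.1%), against 15.0% of all genes and 4.44% of the 45 listed genes. Of the 23, 17 had a change above 0 and 6 below 0. The gene that rose was Ifnar2, an interferon receptor subunit, with 0.26 ± 0.05 (SE, n = 5 per group, limma adjusted p = 0.0376, ranging from 0.0112 to 0.162 and past the threshold in 8 of the 18 limma refits). Its signals were 9.88, 9.74, 9.58, 9.78 and 9.75 in the Dp1Rhr arrays and 9.47, 9.45, 9.53, 9.52 and 9.43 in the control arrays, without overlap. Of 33 chromosome 10 orthologues 0 passed, with a median of 0.02. Of 19 chromosome 17 orthologues 0 rose and 1 fell, Cbs, which makes cystathionine, with -0.28 ± 0.05 (SE, n = 5 per group, limma adjusted p = 0.0434, ranging from 0.0187 to 0.131 and past the threshold in 7 of the 18 limma refits).

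Markers of tissue next to the hippocampus were read as well. The 22 measured choroid plexus genes all had a change above 0, with a median of 0.72, 16 had an unadjusted p under 0.05 and 0 passed the test. Their mean signal was 8.19 to 8.96 in the Dp1Rhr arrays and 6.89 to 8.60 in the control arrays, with control replicates 2 and 3 at 6.89 and 7.04 and no other array below 8.03. The ranges of the groups overlapped. Clic6 and Kcne2, which are choroid plexus markers, are also in the further chromosome 16 list above, at 1.19 ± 0.54 and 0.59 ± 0.25 (SE, n = 5 per group), and neither passed. The 8 ependymal genes had a median of 0.17, and 7 had an unadjusted p under 0.05, against 15.0% of all genes. The 13 genes of habenula and thalamus had a median of 0.14, with 9 above and 4 below 0. They ran from -0.86 for Tcf7l2 to 1.17, and 8 had an unadjusted p under 0.05. The 10 meningeal genes had a median of 0.14, with 2 at an unadjusted p under 0.05. The 14 hippocampal neuron genes had a median of -0.05, with 0 at that p. In each list 0 were called. For the flanking genes the median was -0.0080 without control replicates 2 and 3 and -0.0108 with the choroid plexus score as covariate. In either fit 0 of 45 passed. Over all 19938 genes only 5 and 7 passed in these fits, and 5 and 3 of the 30 duplicated genes. With so few calls, 0 of 45 says little.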

How the data were processed

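The authors summarised Affymetrix Mouse Gene 1.0 ST arrays by RMA, which corrects the background, quantile normalizes and combines probes, and deposited log2 values. Processing notes of the submitters list limma and the build mm10. The RMA version, and which arrays were normalized together, were not found in the sources read. Quantile normalization would hide a change of all genes at once, and the number of arrays limits the precision.

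Of 35556 probe sets, 21789 had exactly 1 gene symbol, 1621 several and 12146 none listed. For 999 genes the brightest of several was used, which gave 19938 genes. The comparison of Dp1Rhr and control was fitted with limma 3.58.1 (R 4.3.3, lmFit and eBayes, two-sided, adjusted over all genes, threshold 0.05), checked on simulated data. FCROS, written anew with a trim of 0.25 and limits of 0.025 and 0.975, was an alternative, since it calls a near-fixed share of genes. Coordinates and promoters are RefSeq's, GRCm38.p6. Genes given array by array were the 8 with the smallest p, the 3 brightest, and those nearest the edges. The genes and lists were chosen with earlier results of these data known. Labels call the mice biological replicates.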

Additional observations from a re-analysis of the deposited data

Results flagged for a closer look

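In 3 of the 90 sets of 5 arrays (45 genes in each group), a single array stood apart from the rest, its gap to the nearest array exceeding 0.71 of the range of its group. Chance alone flags about 1 in 20 groups. Ncam2 was at 10.81 in Dp1Rhr replicate 3, against 10.67 to 10.70 in the other Dp1Rhr arrays. Chodl was at 5.40 in control replicate 2, against 5.29 to 5.31 in the other control arrays, near probe background. Runx1 was at 6.92 in control replicate 4, against 6.47 to 6.59 in the other control arrays.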

How the results depend on the processing

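Across 19 alternatives and the 13 genes given array by array, 233 of 244 values kept direction and side of the threshold. The exceptions were Jam2 and Prdm15 under FCROS, Jam2 without Dp1Rhr replicate 5, and 8 sign changes of values near 0. Leaving out single arrays gave 0 to 1 members called, 5 to 284 of all genes called, and -0.0175 to 0.0263 for Tmprss2. Leaving out control replicates 2 and 3 together gave 5 of all genes and -0.0080 for Sod1. Centring on array medians gave a member median of -0.0218 beside -0.0243 over all genes, with Sod1 at -0.0084 and Tmprss2 at -0.0112. A second quantile normalization gave a member median of -0.0151 beside -0.0062 over all genes, with Tmprss2 at -0.0015. The choroid plexus covariate gave 7 of all genes, with Sod1 at -0.0228 and Setd4 at 0.0021. FCROS called 2 members and 1075 of all genes. The causes were not tested. The replicate block left 4 of all genes and 0 members. Same-numbered arrays correlated at -0.337 to 0.124 in their deviations, so the numbers were not treated as pairs, and the block changed no call of a member. With 5 arrays per group, small changes can be missed.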
